A study of Mus musculus with 20 samples.

Results

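The open chromatin of 3T3-L1 cells was compared between 2 hours and 4 hours after the start of adipocyte differentiation. 3T3-L1 is a mouse preadipocyte line that turns into adipocytes when it is given hormones after it has grown to confluence. The members were all peaks of the DNase I hypersensitive site (DHS) lists of these times, 9055 peaks at 2 hours and 31751 at 4 hours, which together are 40806 of the 284878 peaks in the 19 deposited lists. A peak is a stretch of the genome, given by chromosome, start and end on the mouse build mm9, where sequenced fragments piled up. A peak was counted as in both lists when it overlapped a peak of the other time by at least 1 bp, and as alone otherwise.

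Per the labels, both samples were 3T3-L1 cells kept in DMEM with calf serum and induced on day 0, when they had been confluent for 2 days, with fetal bovine serum, the phosphodiesterase inhibitor 3-isobutyl-1-methylxanthine, insulin and dexamethasone. Dexamethasone activates the glucocorticoid receptor, and the inhibitor raises cAMP. The 2 samples carried the same stage label, early stage, and the same DNase I label, and differed by time. Isolated nuclei received a limited DNase I digestion, and short fragments with a cut at both ends were sequenced. The other samples used here were DHS-seq of day 0 (before induction), day 1, day 2 and day 6 and chromatin immunoprecipitation sequencing (ChIP-seq) of transcription factors and RNA polymerase II (RNA Pol II) in the same line. From day 2 on, the medium held fetal bovine serum and insulin, and later fetal bovine serum alone.

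DNase I cuts DNA fastest where nucleosomes have been moved or removed, so hypersensitive sites mark promoters and enhancers where regulatory proteins can bind. In early adipogenesis, the factors C/EBPbeta and C/EBPdelta are made or activated within hours of the hormonal signal. The glucocorticoid receptor (GR) enters the nucleus with dexamethasone, Stat5a is a signal-dependent factor, and RXR pairs with other nuclear receptors, among them PPARgamma, the later master regulator of fat cells. RNA Pol II marks promoters and transcribed genes.

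Every group held 1 library, so no difference between times could be set against the spread between replicates, and no test was made. Shares carry exact (Clopper-Pearson) 95% intervals and differences of shares carry Newcombe 95% intervals. Both cover counting over the peaks of these libraries only and treat neighbouring peaks as independent. The 6 DHS lists ran from 9055 to 35389 peaks, the 2 hours list being the shortest of them, and their read depth is unknown. A longer list can come from more open sites, from deeper sequencing or from a looser threshold, and these cannot be told apart here. The lists hold no expression values, so the cell type was not checked against marker genes.

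The open sites of 2 hours were nearly all found again at 4 hours. The 4 hours list held 8719 of the 9055 peaks of 2 hours, a share of 96.3% (95.9 to 96.7), and 336 (3.71%, 3.33 to 4.12) were alone. With every peak set to 200 bp around its middle, 1109 were alone. The 2 hours list held 8642 of the 31751 peaks of 4 hours, a share of 27.2% (26.7 to 27.7), and 23109 (72.8%) were alone. The 2 hours list is so short that, with 1 peak of 4 hours for each of its peaks, this share could reach 28.5% at most. The low share therefore restates the lengths of the lists, and the traits of the peaks in each class are what the lists can add.

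The match between the lists was close to peak by peak. There were 8766 overlapping pairs, and in 8443 of them each peak met only the other. Only 42 peaks of 2 hours held 2 or more peaks of 4 hours, 120 peaks of 4 hours held 2 or more peaks of 2 hours, and no peak held more than 3. In the 8443 single pairs, the middles of both peaks lay a median of 45 bp apart (quartiles 20 and 85 bp), and 80.2% lay within 100 bp. Few pairs only grazed each other: 11 pairs overlapped by under 50 bp, the smallest by 4 bp.

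Paired sites were listed wider at the later time. The median width of the single pairs was 584 bp at 2 hours and 790 bp at 4 hours, and the median ratio of widths was 1.32 (quartiles 1.13 and 1.60). The 4 hours peak was the wider one in 7582 pairs (89.8%). In 74.9% of pairs the 2 hours peak lay wholly inside the 4 hours peak, and in 4.54% the reverse held. The extension was even on both sides, with medians of 91 bp to the left and 95 bp to the right. Peak width can grow with read depth as well as with the size of an open site, and this was not tested.

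Width also separated the classes. At 4 hours, peaks in both lists had a median width of 792 bp (quartiles 657 and 985) and peaks alone 551 bp (457 and 654). At 2 hours, the medians were 584 bp (498 and 678) in both lists and 480 bp (405 and 576) alone. When the 4 hours list was split by width into 5 bands of about equal number, the share found at 2 hours rose from 4.57% among peaks of 251 to 461 bp through 9.04%, 18.0% and 41.3% to 63.0% among peaks of 814 to 6065 bp. The 2 hours peaks showed the same order on a smaller scale, from 91.2% found at 4 hours in the narrowest band (251 to 472 bp) to 99.2% in the widest (711 to 6064 bp). Since width and class go together, factor shares below are given for the whole lists, within these bands of width and at equal list length.

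**Figure D1:**
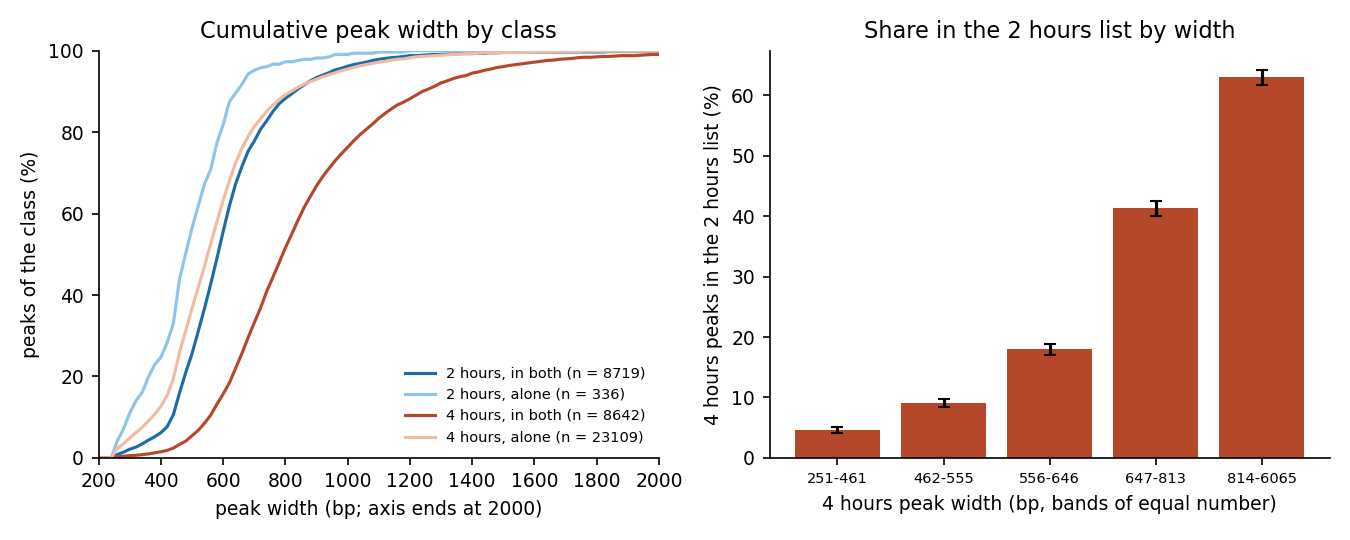
Left, cumulative share of peaks (%) up to each width (bp) for peaks of 2 hours and 4 hours that were in both lists or alone; right, share of 4 hours peaks found in the 2 hours list (%) in 5 bands of width, with exact 95% intervals. The 4 hours peaks in both lists sit furthest to the right (median 792 bp), and the share rises from 4.57% in the narrowest band to 63.0% in the widest.

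Open sites were spaced more closely at 4 hours, as the longer list requires. The median gap from a peak to the nearest peak of its own list was 31.9 kb at 2 hours (quartiles 8.87 and 88.6 kb) and 9.45 kb at 4 hours (2.25 and 25.9 kb). With the 4 hours list cut to the same length it was 40.6 kb, above the 2 hours value. Peaks of 4 hours in both lists had a neighbour in their own list at a median of 8.48 kb and those alone at 9.91 kb.

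Peaks found at one time only were mostly not near misses of a peak at the other time. The 23109 peaks of 4 hours alone lay a median of 51.5 kb from the nearest 2 hours peak, and 4.29% of them lay within 1 kb of one. The 336 peaks of 2 hours alone lay a median of 7.39 kb from the nearest 4 hours peak, and 14.6% lay within 500 bp of one. These 336 peaks were also closer to their own list, at a median of 17.0 kb against 32.5 kb for 2 hours peaks in both lists.

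**Figure D2:**
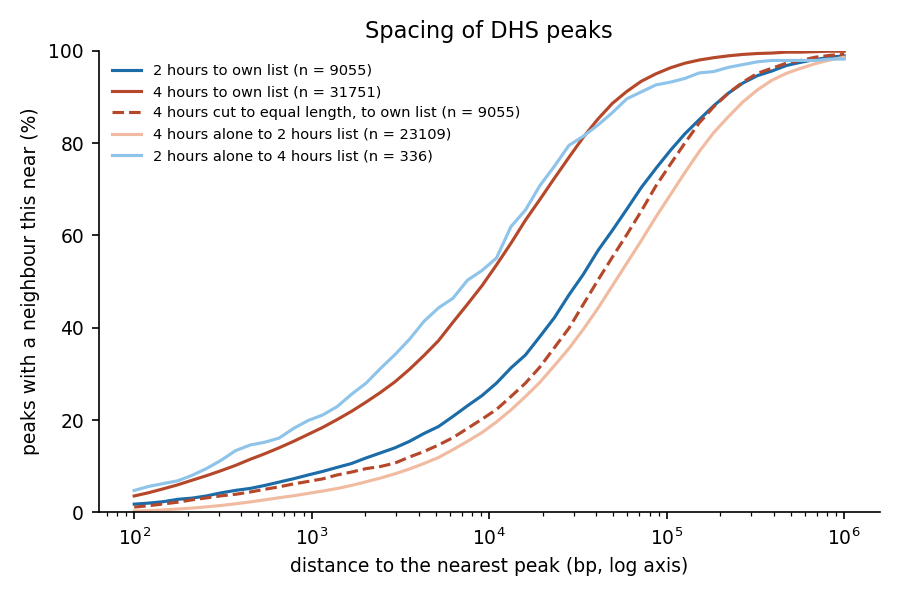
Cumulative share of peaks (%) with a neighbour within a given distance (bp, log axis), for each list against itself, for the 4 hours list cut to equal length, and for peaks alone against the other time's list. The curve of the full 4 hours list lies to the left (median 9.45 kb) of the 2 hours list (31.9 kb), and the curve of the cut 4 hours list (40.6 kb) lies slightly to its right.

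The factor lists of 4 hours were then laid over the 4 hours peaks. All 5 factors were listed more often at open sites already present at 2 hours than at sites listed at 4 hours alone. C/EBPbeta, an early activator of the adipogenic program, had a peak at 58.3% (57.2 to 59.3) of the 8642 sites in both lists and at 36.9% (36.3 to 37.5) of the 23109 sites alone. The difference was 21.4 percentage points (20.2 to 22.6), and the share over all 4 hours peaks was 42.7%. Its relative C/EBPdelta was at 43.3% and 22.2%, a difference of 21.0 points (19.9 to 22.2), with 27.9% over all 4 hours peaks.

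The hormone- and signal-dependent factors had lower shares but larger ratios between classes. GR lay at 21.6% (20.8 to 22.5) of the sites in both lists and at 5.50% (5.21 to 5.80) of those alone, against 9.89% of all 4 hours peaks. Stat5a lay at 20.8% and 7.05%, against 10.8% of all. RXR lay at 11.3% and 2.31%, against 4.77% of all. The differences were 16.1 points (15.2 to 17.1) for GR, 13.8 (12.9 to 14.7) for Stat5a and 9.03 (8.35 to 9.74) for RXR.

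Each of these differences kept its sign within every band of width. In the narrowest band, C/EBPbeta lay at 53.8% of 290 sites in both lists and 33.5% of 6054 alone, and in the widest at 55.3% of 4008 and 35.5% of 2349. GR lay at 22.4% and 4.10% in the narrowest band and at 20.9% and 5.53% in the widest. Stat5a lay at 25.5% and 6.11% in the narrowest and at 19.1% and 6.60% in the widest. For C/EBPdelta the difference ran from 18.0 to 26.3 points over the bands, and for RXR from 8.10 to 13.0 points.

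RNA Pol II of 4 hours behaved otherwise. Over the whole list it lay at 33.5% (32.5 to 34.5) of the 4 hours sites in both lists and at 21.7% (21.2 to 22.3) of those alone, a difference of 11.8 points (10.6 to 12.9), with 24.9% over all 4 hours peaks. Within every band of width the sign turned: the sites alone held RNA Pol II more often, by 5.05 to 9.26 points, and the mean difference over the bands was -7.31 points. With every peak set to 200 bp, which also changes the classes and shortens the RNA Pol II peaks, the whole-list difference was 1.22 points. With the classes kept and RNA Pol II counted in the middle 200 bp of each DHS peak, it was 9.91 points. RNA Pol II rose steeply with width, from 3.10% in both and 10.1% alone in the narrowest band to 50.2% and 56.6% in the widest. The higher share of RNA Pol II over the whole list thus went with the width of the sites in both lists.

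**Figure D3:**
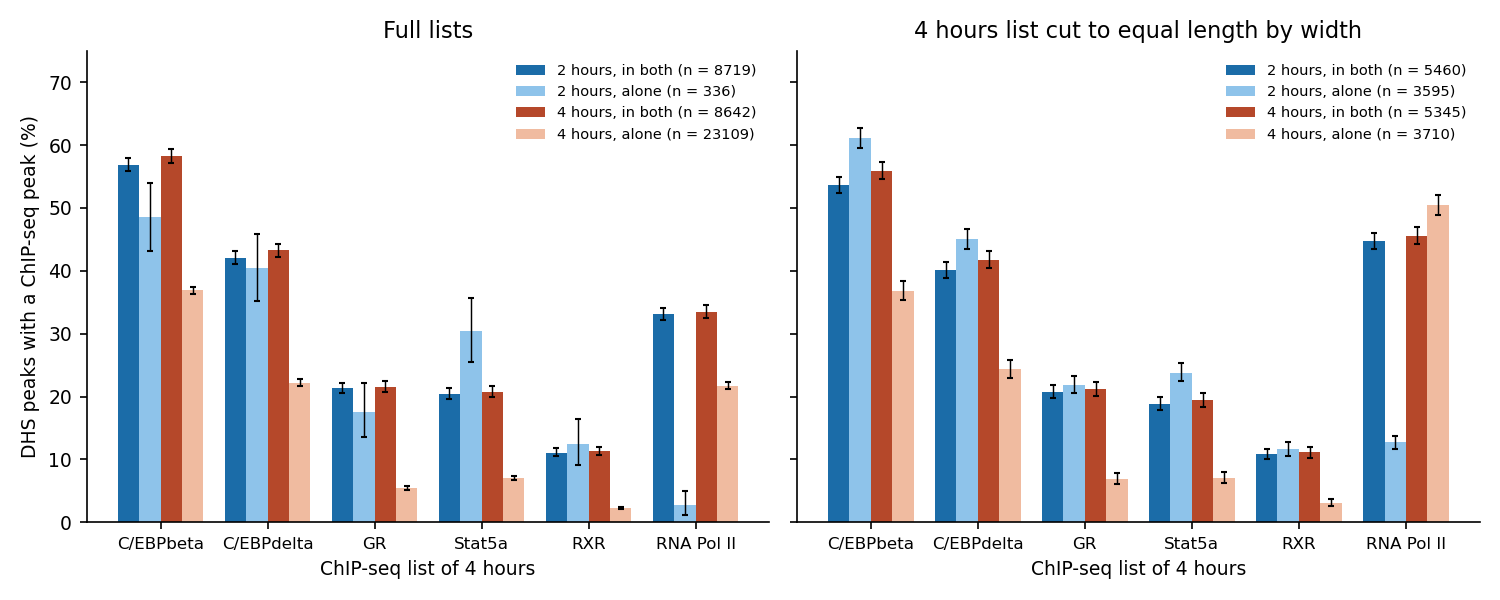
Share of DHS peaks (%) that hold a ChIP-seq peak of 4 hours, by factor and by class of DHS peak, for the full lists (left) and with the 4 hours list cut to its 9055 widest peaks (right); bars carry exact 95% intervals. For the 5 factors the dark red bars (4 hours, in both) stand above the light red ones (4 hours, alone) in both panels, whereas for RNA Pol II they do so on the left (33.5% and 21.7%) and not on the right (45.6% and 50.5%).

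The more of the 5 factors a 4 hours site held, the more often it was already listed at 2 hours. The share in the 2 hours list was 19.0% (18.4 to 19.6) of the 17207 sites with no factor, 27.1% of 5315 with 1, 32.5% of 5268 with 2, 46.2% of 1969 with 3, 59.6% of 1194 with 4 and 74.8% (71.6 to 77.8) of the 798 sites with all 5. The rise was present in every band of width: from 2.92% to 32.3% in the narrowest, from 10.3% to 59.5% in the middle and from 52.9% to 93.2% in the widest. Sites with all 5 factors, 798 of the 31751 peaks of 4 hours, made up 6.91% of the sites in both lists and 0.870% of the sites alone. Sites with none made up 37.9% and 60.3%. The commonest combinations at sites alone were C/EBPbeta by itself (14.2%) and C/EBPbeta with C/EBPdelta (13.6%).

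**Figure D4:**
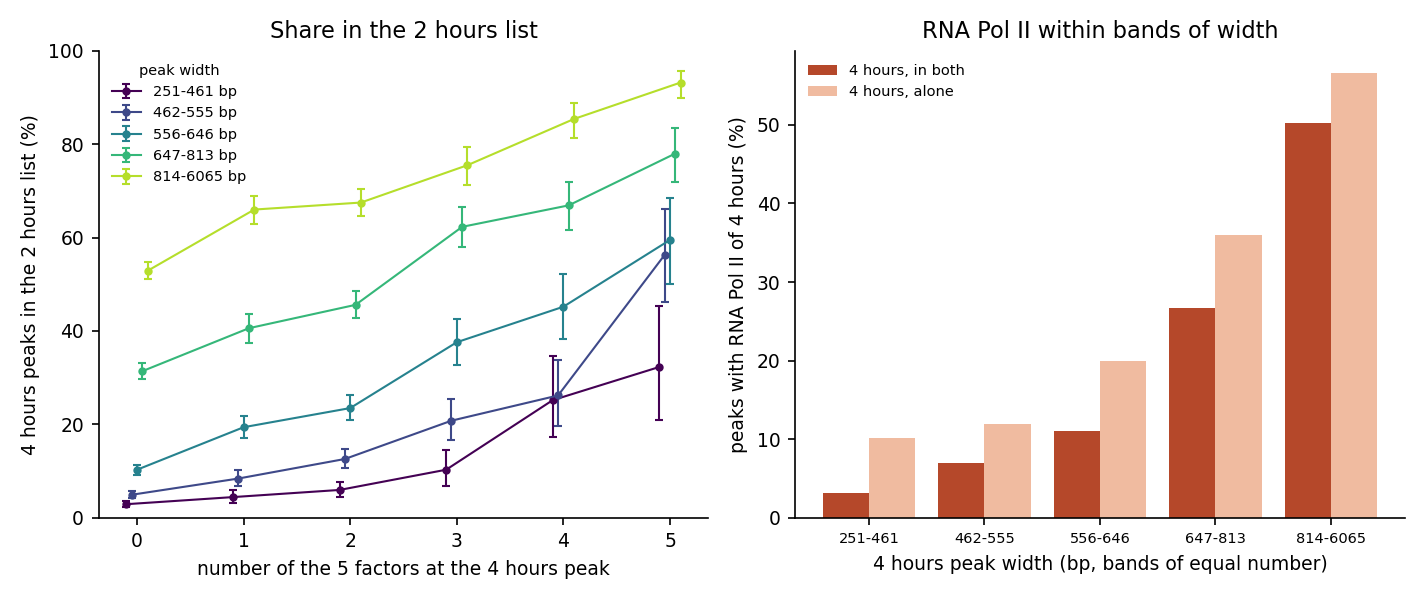
Left, share of 4 hours peaks found in the 2 hours list (%) against the number of the 5 factors at the peak, 1 line for each band of width, with exact 95% intervals; right, share of 4 hours peaks with RNA Pol II of 4 hours (%) by band of width for peaks in both lists and alone. All 5 lines climb with the number of factors, the lowest from 2.92% to 32.3% and the highest from 52.9% to 93.2%, and at right the bar of the peaks alone is the taller in each band.

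Seen from the 2 hours list as deposited, the number of factors made little difference to whether a site was found at 4 hours. The share found ran from 95.7% (3424 of 3577 peaks of 2 hours with no factor of 4 hours) to 97.5% (96.6 to 98.2) of the 1473 with 1, and was 96.1% (94.2 to 97.5) of the 614 with all 5. By RNA Pol II of 4 hours, 99.7% (99.4 to 99.9) of the 2897 peaks with it were found and 94.7% (94.1 to 95.2) of the 6158 without it. With every peak set to 200 bp these shares were 88.7% and 87.6%. In that setting, 92.1% of the peaks with C/EBPbeta of 4 hours were found and 83.5% of those without it. The shares with and without were 90.1% and 86.3% for C/EBPdelta and 91.5% and 86.9% for GR. They were 89.0% and 87.5% for Stat5a and 89.7% and 87.5% for RXR.

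C/EBPbeta was also mapped on day 0 and at 2 hours, so its earlier lists can be set beside the DHS classes. Of the 5037 sites of 4 hours that were in both DHS lists and held C/EBPbeta at 4 hours, 82.2% (81.1 to 83.2) also held it at 2 hours and 74.6% on day 0. Of the 8530 such sites in the 4 hours DHS list and not the 2 hours one, 64.8% (63.8 to 65.8) held C/EBPbeta at 2 hours and 54.6% on day 0. These 8530 included 704 in the DHS list of day 0, where opening did not follow induction, and 7826 in neither earlier DHS list. C/EBPbeta was listed at 4 hours and at neither earlier time at 11.6% of the sites in both lists and 27.2% of those not in the 2 hours DHS list. The C/EBPbeta lists (20471 peaks on day 0, 19703 at 2 hours and 29957 at 4 hours) were longer than the DHS lists of day 0 and 2 hours, so a site can be in a C/EBPbeta list and below the threshold of a DHS list.

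The day 0 list splits the 4 hours sites further, into those open before induction and those first listed later. Sites in the day 0 and 2 hours lists numbered 5269 (16.6% of the 4 hours list), those in the day 0 list and not at 2 hours 4000 (12.6%), those at 2 hours and not on day 0 3373 (10.6%) and those in neither 19109 (60.2%). Their median widths were 851, 674, 704 and 529 bp.

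The sites first listed at 2 hours held the factors most often. C/EBPbeta of 4 hours lay at 81.3% (79.9 to 82.6) of these 3373 sites, at 43.6% of the sites in the day 0 and 2 hours lists, at 41.0% of those in neither and at 17.6% of those on day 0 and not at 2 hours. GR lay at 38.1% (36.5 to 39.8), 11.1%, 6.42% and 1.10% in the same order, and Stat5a at 35.4% (33.8 to 37.0), 11.5%, 8.14% and 1.88%. RXR lay at 19.2%, 6.28%, 2.68% and 0.525%. Sites with 3 or more factors made up 43.9% of those first listed at 2 hours, 14.0% of those in the day 0 and 2 hours lists, 8.80% of those first listed at 4 hours and 1.52% of those on day 0 and not at 2 hours. Of all 31751 peaks of 4 hours, 1969 held 3 factors, 1194 held 4 and 798 held all 5.

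RNA Pol II of 4 hours ran the other way. It lay at 48.3% of the sites in the day 0 and 2 hours lists and at 48.9% (47.3 to 50.5) of those in the day 0 list and not at 2 hours, but at 10.3% (9.28 to 11.4) of the sites first listed at 2 hours and at 16.0% (15.5 to 16.6) of those first listed at 4 hours. With the 4 hours list cut to its widest 9055 peaks, these shares were 56.9%, 68.6%, 16.6% and 37.5%, in the same order of classes. GR in the cut list lay at 46.2% of the 1502 sites first listed at 2 hours and lay at 238 of the 2164 sites in neither earlier list, at median widths of 865 and 851 bp.

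The DHS lists of other times sorted the classes as well. Of the 4 hours sites in both lists, 61.0% were in the day 0 list, 8209 of 8642 in the day 1 list, 79.8% in the day 2 list and 55.3% in the day 6 list. Of the sites alone, the shares were 17.3%, 70.2%, 46.7% and 23.4%. Over all 4 hours peaks they were 29.2%, 77.0%, 55.7% and 32.1%. The differences between these classes were 43.7, 24.7, 33.1 and 31.9 points. With the 4 hours list cut to its 9055 widest peaks they kept their sign and shrank, to 30.2, 6.92, 12.7 and 15.1 points.

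Sites not listed on day 0 were largely gone from the list of day 6, whether first listed at 2 hours or at 4 hours. The day 1 list held 89.1% of the 3373 sites first listed at 2 hours, the day 2 list 60.1% and the day 6 list 16.7% (15.5 to 18.0). For the 19109 sites first listed at 4 hours these shares were lower in the full list, at 64.7%, 39.3% and 13.7% (13.2 to 14.2). By contrast, 80.0% (78.9 to 81.0) of the 5269 sites open on day 0 and at 2 hours were listed on day 6. The 4000 sites listed on day 0 and at 4 hours but not at 2 hours were in the day 1 list in 96.9% and in the day 6 list in 69.7% of cases. With the 4 hours list cut to its widest 9055 peaks, the day 6 order of the later sites turned. The day 6 list then held 21.0% (18.9 to 23.1) of the 1502 first listed at 2 hours. It held 29.0% (27.1 to 30.9) of the 2164 in neither earlier list. The day 1 shares (95.9% and 86.2%) and day 2 shares (69.0% and 62.8%) kept their order.

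**Figure D5:**
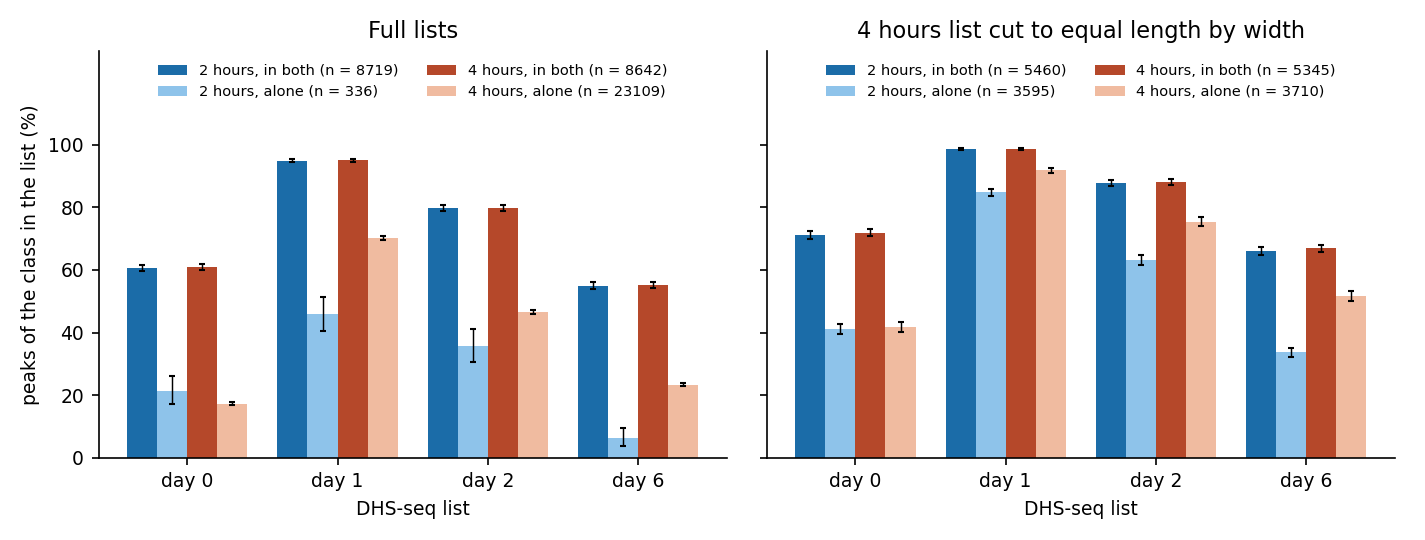
Share of DHS peaks of each class (%) found in the DHS lists of day 0, day 1, day 2 and day 6, for the full lists (left) and with the 4 hours list cut to its 9055 widest peaks (right); bars carry exact 95% intervals. Peaks in both lists are the more often found on each day, and the 336 peaks of 2 hours alone fall to 6.25% on day 6.

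The 336 peaks of 2 hours alone were a mixed class. For 3 of the factors their shares were close to those of 2 hours peaks in both lists: C/EBPdelta of 4 hours lay at 40.5% of them and 42.1% of the 2 hours peaks in both (difference 1.64 points, -3.79 to 6.86), GR at 17.6% and 21.4% (3.80, -0.713 to 7.59) and RXR at 12.5% and 11.1% (-1.36, -5.38 to 1.83). C/EBPbeta lay at 48.5% and 56.9%, a difference of 8.42 points (2.99 to 13.8). Stat5a was listed more often at the sites alone, at 30.4% (25.5 to 35.6) against 20.4%, a difference of -9.91 points (-15.1 to -5.16). RNA Pol II of 4 hours lay at 2.68% (1.23 to 5.02) against 33.1%, a difference of 30.4 points. Both contrasts stayed with the classes kept and factors counted in the middle 200 bp of each DHS peak. The differences were then -9.87 points for Stat5a and 28.1 for RNA Pol II. Neither contrast held with every peak of the DHS and ChIP-seq lists set to 200 bp around its middle. That setting changes the classes, with 1109 sites alone, and shortens the ChIP-seq peaks, which reach 8175 bp for RNA Pol II of 4 hours. Stat5a then lay at 16.7% of the sites alone and 18.8% of those in both lists, so its sign turned (2.16 points), and RNA Pol II lay at 13.8% and 15.1%, a difference of 1.28 points. The other differences were then 19.9 points for C/EBPbeta, 8.24 for C/EBPdelta, 6.73 for GR and 1.89 for RXR. That of C/EBPdelta thus lay above its interval for the peaks as deposited. Over all 9055 peaks of 2 hours the shares were 56.6% for C/EBPbeta, 42.1% for C/EBPdelta, 21.2% for GR, 20.8% for Stat5a, 11.2% for RXR and 32.0% for RNA Pol II. These factor lists are of 4 hours, a time at which no DHS peak was listed at these 336 sites.

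With the peaks as deposited, these 336 sites differed among themselves by their factors. The 153 sites (45.5%) with none of the 5 factors were in the day 0 DHS list in 37.9% (30.2 to 46.1) of cases, in the day 1 list in 29.4% and in the day 6 list in 11.8%. Of the 183 sites with at least 1 factor, the day 0 list held 7.65% (4.25 to 12.5), the day 1 list 59.6% and the day 6 list 1.64%. C/EBPbeta of 2 hours lay at 78.1% of these 183, and C/EBPbeta of 4 hours, 1 of the factors they were picked by, at 163. Among the 94 sites with 3 or more factors, C/EBPbeta of 2 hours lay at 94.7%, Stat5a at 86.2%, GR at 57.4% and RXR at 43.6%. All 94 held C/EBPbeta of 4 hours. Picking sites by their factors sets such shares high, so they describe the choice of sites and not the class of 336. Of these 94, 72.3% were listed as open on day 1 and 0 of 94 on day 6 (exact 95% upper limit 3.85%; 3 counts of the total would be 3.19%). In all, 59.2% of the 336 sites were listed again on day 1, day 2 or day 6, and 49 sites (14.6%) were in no other list of the series.

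Part of this class came from a few dense stretches. Peaks spaced by 10 kb or less were joined into chains, and stretches with chains of 10 or more peaks of either list held 50 of the 336 sites alone (14.9%) but 1.57% of the 2 hours peaks in both lists. In these stretches, 84% of the sites alone had no factor and 58% were in the day 0 list. Outside them, the 286 sites alone held Stat5a in 35.0% (29.4 to 40.8), C/EBPbeta in 55.6% and RNA Pol II in 2.10% of cases, against 20.6%, 57.6% and 33.4% of the 2 hours peaks in both lists. The C/EBPbeta difference outside the stretches was thus 1.96 points in place of 8.42.

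The longest chain of 4 hours lay on chromosome 11 at 3023571 to 3099548 (76.0 kb) and held 35 peaks of 4 hours, 31 of them in both lists, beside 44 peaks of 2 hours and 40 of day 0. The next chains lay on chromosome 10, at 116814639 to 116879661 with 27 peaks, 19 of them in both lists, and at 106650515 to 106694124 with 27 peaks, all in both lists. Of the 2 hours chains, 1 on chromosome 10 at 117145943 to 117230080 had 26 peaks of which 15 were alone, and another on chromosome 2 at 77707755 to 77763458 had 20 peaks of which 10 were alone. In chains of 10 or more, 67.3% (59.2 to 74.8) of 150 peaks of 2 hours were found at 4 hours, against 97.1% of the 6650 peaks with no neighbour within 10 kb. In the 4 hours list the order was opposite: 59.9% (53.1 to 66.4) of 222 peaks in such chains were found at 2 hours, against 25.7% of 15498 single peaks. The chromosome 11 chain had 40 peaks of day 6 and 44 of 2 hours, although both lists are short, and it held 1 peak of C/EBPdelta and no peak of RXR at 4 hours.

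To set the lists at equal length, the 4 hours list was cut to its 9055 widest peaks. The narrowest peak kept was 727 bp wide, as was the widest dropped, with 20 peaks of that width kept and 15 dropped by order in the list. Of the 2 hours peaks, 18.1% were as wide as that. The share of 2 hours peaks found at 4 hours fell to 60.3% (59.3 to 61.3), with 3595 alone, and the share of 4 hours peaks found at 2 hours rose to 59.0% (58.0 to 60.0), with 3710 alone. The 22696 dropped peaks included 3297 that had been in the 2 hours list. Of the 3595 peaks of 2 hours now alone, 3259 had a narrower 4 hours peak in the full list, so at equal length "alone" stands for a narrow 4 hours peak rather than for no peak.

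The factor differences of the 4 hours sites stayed at equal length. C/EBPbeta lay at 55.9% of 5345 sites in both lists and 36.8% of 3710 alone (19.1 points, 17.1 to 21.2), C/EBPdelta at 41.8% and 24.4%, GR at 21.2% and 6.95% (14.2 points, 12.8 to 15.6), Stat5a at 19.4% and 7.06% and RXR at 11.2% and 3.07%. RNA Pol II reversed, with 45.6% and 50.5%, a difference of -4.86 points (-6.95 to -2.77). On the 2 hours side, C/EBPbeta lay at 53.7% of 5460 sites in both lists and at 61.1% of 3595 alone, so its sign turned too (-7.40 points, -9.47 to -5.33), and that of C/EBPdelta (40.1% and 45.0%) with it. GR (20.8% and 21.8%) and RXR (10.9% and 11.7%) differed by under 1 point there. Stat5a (18.8% and 23.8%) and RNA Pol II (44.7% and 12.7%) had the directions of the full lists here, unlike Stat5a with peaks set to 200 bp.

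The widest sites of each class show what the lists hold. The widest site in both lists lay on chromosome 17 at 39979772 to 39985836 and spanned 6065 bp at 4 hours and 6064 bp at 2 hours, with C/EBPbeta and C/EBPdelta at 4 hours and a DHS peak on each of the other days. The second lay on chromosome 7 at 38972666 to 38977458 (4793 bp at 4 hours, 4769 bp at 2 hours) and held none of the 5 factors. The third, on chromosome 11 at 86391788 to 86396261, was 1 peak of 4474 bp at 4 hours and 3 peaks at 2 hours, the widest of 608 bp. It held RNA Pol II on day 0 and at 4 hours. Other peaks of 4 hours with 3 peaks of 2 hours inside or across them lay on chromosome 1 at 164146611 to 164149402 (2792 bp, no factor, RNA Pol II on day 0 and at 4 hours) and chromosome 2 at 160445465 to 160448094 (2630 bp, all factors but RXR). In reverse, the widest peaks of 2 hours that met 3 peaks of 4 hours all lay on chromosome 10, at 116718506 to 116722778 (4273 bp), 106683806 to 106687220 (3415 bp) and 106664972 to 106668382 (3411 bp), and the last of them held no factor.

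The widest sites of 4 hours alone lay on chromosome 5 at 58106440 to 58110076 (3637 bp), chromosome 8 at 87498146 to 87500915 (2770 bp) and chromosome 17 at 71198910 to 71201497 (2588 bp). All 3 were in the DHS lists of day 0, day 1, day 2 and day 6 and held C/EBPbeta at 2 hours and RNA Pol II on day 0. The widest sites of 2 hours alone were narrower, at 1198 bp on chromosome 16 (3246281 to 3247478), 1100 bp on chromosome 2 (122507026 to 122508125) and 1020 bp on chromosome 12 (117046605 to 117047624). None of them held a ChIP-seq peak of any list, and all 3 were in the day 0 DHS list.

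Sites with all 5 factors occurred in every class. In both lists, the widest lay on chromosome 19 at 5844561 to 5847784 (3224 bp), with RNA Pol II and DHS peaks at all times, and the next on chromosome 12 at 25781973 to 25784427 (2455 bp) and chromosome 7 at 91677181 to 91679177 (1997 bp), neither of which was open on day 0 or day 6. At 4 hours alone, the widest lay on chromosome 13 at 31659053 to 31660574 (1522 bp), chromosome 1 at 71958868 to 71960107 (1240 bp) and chromosome 16 at 25783672 to 25784674 (1003 bp). All 3 held C/EBPbeta at 2 hours without a DHS peak at 2 hours or day 0, and none held RNA Pol II. At 2 hours alone, the widest lay on chromosome 18 at 62744528 to 62745263 (736 bp), chromosome 2 at 141569515 to 141570195 (681 bp) and chromosome 6 at 129095703 to 129096372 (670 bp). The first 2 of these were open again on day 1 and day 2, and the last was in no other DHS list, although it held C/EBPbeta at all 4 times mapped.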

How the data were processed

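Mapped were open chromatin by DHS-seq and protein binding by ChIP-seq in 3T3-L1 cells, 20 samples with 1 per group. For 19 samples the authors deposited a list of peaks as positions in base pairs (chromosome, start, end), without scores, heights or counts of reads. The remaining sample, an input control, was not analysed here. The build was mm9, per the submitters' processing notes. The aligner, peak caller, threshold and read depth are not given in the sources used here, so depth is unknown and list length stands in its place. Nor is it stated whether the times came from separate cultures. Positions are printed counted from 1.

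Overlaps of at least 1 bp, gaps, chains (10 kb) and widths were computed from the lists with NumPy 2.4.6 and SciPy 1.17.1 under Python 3.11.15, and drawn with Matplotlib 3.10.9. Overlap code was checked on simulated peaks. The 5 bands of width were cut at the quantiles of the 4 hours list. Intervals and the limit of a count of 0 (3 counts of the total) cover counting only. Named sites were the 3 widest of each class, the 3 widest of each class with most factors, the longest chains, and the widest peaks holding the most peaks of the other time. The 2 hours chains on chromosome 2 and on chromosome 10 (117145943 to 117230080) were chosen after their values were seen. The classes, lists and alternatives were chosen with earlier results of these data known. Alternatives were gaps of up to 500 bp, an overlap of 50% of the shorter peak, peaks set to 200 bp, the wider 50% of each list, equal length, bands of width and no sex chromosomes. Factors in the middle 200 bp, the lists without dense stretches, and every setting for factors at 2 hours sites and for median widths were added after the data were seen, as was leaving out the sex chromosomes for all results but the overlap shares. No mm9 annotation or genome was used here, so sites carry no gene names or sequences.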

Additional observations from a re-analysis of the deposited data

How the results depend on the processing

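Of 142 alternative values for 18 results, 89 stayed within the counting interval (within 1.5 times for counts) of the value reported, 42 moved beyond it and 11 changed sign. Leaving out the X and Y chromosomes changed none. The share of 2 hours peaks found at 4 hours (96.3%) was 96.8% with gaps of up to 500 bp, 87.8% with peaks set to 200 bp, 60.3% at equal length, 92.4% with the wider 50% of each list and 96.8% without dense stretches. The share of 4 hours peaks found at 2 hours (27.2%) was 29.1%, 25.0%, 59.0% and 26.3% under the first 4 of these. The 336 peaks of 2 hours alone became 1109 with peaks set to 200 bp and 3595 at equal length, and the 23109 of 4 hours alone became 3710 at equal length and 11705 with the wider 50%, where fewer peaks enter by construction. Median width of 4 hours peaks in both lists minus alone was 53.5 bp at equal length in place of 241 bp, and of 2 hours peaks 51.5 bp with the wider 50% in place of 104 bp. Widths have no value with peaks set to 200 bp.

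Differences at 4 hours sites, in percentage points, were as follows. With peaks set to 200 bp they were 19.2 for C/EBPbeta, 18.0 for C/EBPdelta, 14.7 for GR, 12.3 for Stat5a, 8.11 for RXR and 1.22 for RNA Pol II. At equal length they were 19.1, 17.5, 14.2, 12.3, 8.10 and -4.86. The wider 50% gave 15.1 for GR, 7.34 for RXR and 1.24 for RNA Pol II. The mean over width bands gave 22.6 for C/EBPbeta, 15.9 for Stat5a and -7.31 for RNA Pol II, and the middle 200 bp gave 19.8 for C/EBPbeta, 19.7 for C/EBPdelta and 9.91 for RNA Pol II.

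At 2 hours sites, peaks set to 200 bp gave 19.9 for C/EBPbeta, 8.24 for C/EBPdelta, 2.16 for Stat5a, 1.89 for RXR and 1.28 for RNA Pol II, so the Stat5a excess at sites alone turned. Equal length gave -7.40 for C/EBPbeta, -4.94 for C/EBPdelta, -0.984 for GR and -5.01 for Stat5a. The wider 50% gave -2.91, -6.12 and -2.08 for the first 3 of these and 24.9 for RNA Pol II. Without dense stretches C/EBPbeta was 1.96 and C/EBPdelta -3.93. RNA Pol II was 26.9 with an overlap of 50% of the shorter peak and 32.6 with gaps of up to 500 bp. The cause of these shifts was not tested.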

Other observations

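PPARgamma was mapped only on day 2 and day 6, days after both DHS lists. Its day 2 peaks lay at 6.83% (6.30 to 7.38) of the 4 hours sites in both lists and at 2.91% (2.70 to 3.13) of those alone, and its day 6 peaks at 9.28% (8.68 to 9.91) and 4.49% (4.22 to 4.76). Over all 31751 peaks of 4 hours the shares were 3.97% and 5.79%. At the 336 sites of 2 hours alone the shares were 2.38% (8 sites, 1.03 to 4.64) on day 2 and 4.17% (14 sites, 2.30 to 6.89) on day 6. At the 8719 peaks of 2 hours in both lists they were 6.58% and 8.72%. C/EBPdelta of day 0, a list of 2581 peaks, lay at 13.4% (12.7 to 14.2) of the 4 hours sites in both lists and at 2.73% (2.53 to 2.95) of those alone, against 5.65% of all.

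The share of 4 hours peaks found at 2 hours differed between chromosomes. It was 17.6% (14.7 to 20.7) of 655 peaks on the X chromosome, 21.6% on chromosome 3 and 22.4% on chromosome 18, and it reached 33.2% on chromosome 19 and 33.7% (31.1 to 36.3) on chromosome 17. In the same order, these chromosomes held 18.3, 22.5, 23.7, 35.1 and 34.8 peaks of 2 hours per 100 of 4 hours. The differences thus restate the lengths of the lists on each chromosome. Sites of 2 hours alone made up 8.42% of the 2 hours peaks on chromosome 10, which holds several of the dense stretches, and 1.52% on chromosome 17.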
